A study of Mus musculus with 27 samples.

Results

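Myc and 34 genes of ribosome biogenesis were followed in mouse CD8 T cells with low, normal or high activity of let-7 miRNAs, before activation, early in activation and after differentiation into cytotoxic T lymphocytes (CTLs). The 35 genes were taken by symbol from the 35275 genes of each table. By role they are Myc itself, 3 RNA polymerase I subunits (Polr1a, Polr1b, Polr1c), 5 abundant nucleolar proteins (Ncl, Npm1, Npm3, Ddx21, Mybbp1a), 7 proteins of small nucleolar RNPs (Fbl, Nop56, Nop58, Dkc1, Gar1, Nhp2, Nolc1), 8 processing factors of the small subunit (Heatr1, Utp20, Wdr43, Rrp9, Nop14, Bysl, Rrp12, Tsr1) and 11 assembly factors of the large subunit (Pes1, Bop1, Wdr12, Ppan, Nop2, Nop16, Rrs1, Nip7, Noc2l, Gnl3, Rrp1b). All 35 were found, and all 35 passed the filter on low values at every stage, with at least 60 reads in each library. They lie on 17 chromosomes, with at most 5 on the same one.

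RNA was sequenced from P14 CD8 T cells, whose transgenic receptor recognises peptide gp33 of LCMV, from mice on a Rag2-/- background. WT, lin28Tg and let-7Tg mice were compared at each of 3 stages with 3 biological replicates per group, 27 libraries in all. In lin28Tg cells a Lin28b transgene keeps let-7 precursors from maturing, while in let-7Tg cells doxycycline switches on a let-7g transgene in the Col1a1 locus. Naive cells were taken from lymphoid organs without stimulation, after transgenic and control mice had received doxycycline in their drinking water. Activated cells had been stimulated for 12 h with anti-CD3 at 2 μg/mL and anti-CD28 at 5 μg/mL, with doxycycline at 2 μg/mL. CTLs were taken on day 5 after stimulation with irradiated splenocytes and anti-CD3 at 2 μg/mL, with doxycycline at 2 μg/mL in the medium and IL-2 at 100 U/mL added at 48 h. Naive and 12 h libraries belong to one sequencing analysis and day 5 libraries to another, so the day 5 stage and its analysis cannot be told apart.

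Ribosomes are assembled in the nucleolus, where RNA polymerase I transcribes the long precursor of ribosomal RNA. Small nucleolar RNPs modify this precursor, and the early small and large subunits are then cut and folded out of it by separate sets of factors before export to the cytoplasm. Myc is a transcription factor that binds E-boxes with its partner Max and is known to raise the transcription of many of these genes, and it is induced within hours when T cells meet antigen. Mature let-7 miRNAs pair through their seed with sites in the 3′ UTR of mRNAs and lower their stability and translation, and they are known to decline after T cell activation.

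Levels are given as FPKM, in which the reads of a gene are divided by its length and by the total of the library, so that levels can be compared between genes. Differences are log2 differences of scaled FPKM plus 0.5, with the SE of the limma model and a Benjamini-Hochberg adjusted p over all genes tested, and a gene is said to rise, fall or differ where that p was under 0.05. In bulk RNA, a smaller number of cells expressing a gene cannot be told apart from less RNA per cell.

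Libraries held 13862679 to 23590836 counted reads. Lin28b, the transgene of lin28Tg cells, was at 56.4 to 67.9 FPKM in naive, 9.94 to 12.6 FPKM in 12 h and 14.0 to 22.4 FPKM in day 5 lin28Tg libraries, and at or below 0.059 FPKM in all others. Col1a1, which hosts the let-7g transgene, was at 9.06 to 62.8 FPKM in let-7Tg libraries and at or below 4.93 FPKM elsewhere. All 8 CD8 T cell markers were above 1 FPKM on average in each group. In naive lin28Tg against WT libraries, however, 3 of these 8 were called lower and 0 higher. Of 6 naive T cell markers 1 was called higher and 3 lower, and of 6 activated T cell markers 5 higher and 1 lower. Against naive let-7Tg libraries these counts were the same, beside 44.1% of all genes called. The part of this in the differences of the 35 genes was not tested. Naive lin28Tg libraries also had higher summed levels of myeloid, erythroid, NK and CD4 T cell markers. The summed level of 9 myeloid markers was 229, 1010 and 526 FPKM there against 44.2 to 78.3 FPKM in WT and 33.6 to 82.7 FPKM in let-7Tg libraries, and that of 6 erythroid markers was 494 to 1990 FPKM against 153 to 292 and 1.92 to 38.7 FPKM. The 5 NK cell markers summed to 117 to 412 FPKM in naive lin28Tg, 42.9 to 82.0 FPKM in WT and 32.6 to 63.4 FPKM in let-7Tg libraries, and the 4 CD4 T cell markers to 24.1 to 83.5, 12.9 to 23.7 and 14.0 to 19.3 FPKM. Against WT, 9 of 9 myeloid, 4 of 5 tested erythroid and 3 of 5 NK cell markers were called higher and none lower. Of the 4 CD4 T cell markers 2 were called higher and 2 lower, beside 34.8% of all genes called. The sums of 7 B cell markers (359 to 431 FPKM in lin28Tg, 414 to 448 FPKM in WT, 380 to 431 FPKM in let-7Tg) and of 6 stromal markers (42.2 to 56.9, 63.4 to 64.8 and 69.9 to 75.9 FPKM) were not higher there. The sums hide single markers, however. Of the 6 stromal markers 4 were called higher in lin28Tg than in WT and 1 lower, and of 4 tested B cell markers 2 higher and 1 lower. No defining myeloid, erythroid or NK marker was at 0 in any naive group.

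At day 5 single libraries stood apart for these genes. Replicate 3 of WT was the highest of its group for 33 of the 35 genes and exceeded both others more than 1.5 times for 27, with a median ratio of 2.03 to the mean of the others. Replicate 3 of let-7Tg was highest for 33 genes as well, 29 of them by more than 1.5 times, with a median ratio of 1.93. In lin28Tg CTLs replicate 1 was the lowest for 31 genes. The SD between day 5 replicates, as a median over the 35 genes on the log2 scale, was therefore 0.625 in WT, 0.354 in lin28Tg and 0.586 in let-7Tg, against 0.0514 to 0.133 in the naive and 12 h groups and 0.154 to 0.193 for all tested genes at day 5. Replicate 2 of let-7Tg CTLs was also more than 4 times below both other libraries for Rrp12, Rrp9 and Rrp1b, as it was for 16 of 8908 genes with at least 5 FPKM in the others (0.18%), and Rrp12 reached only 0.613 FPKM there.

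**Figure D1:**
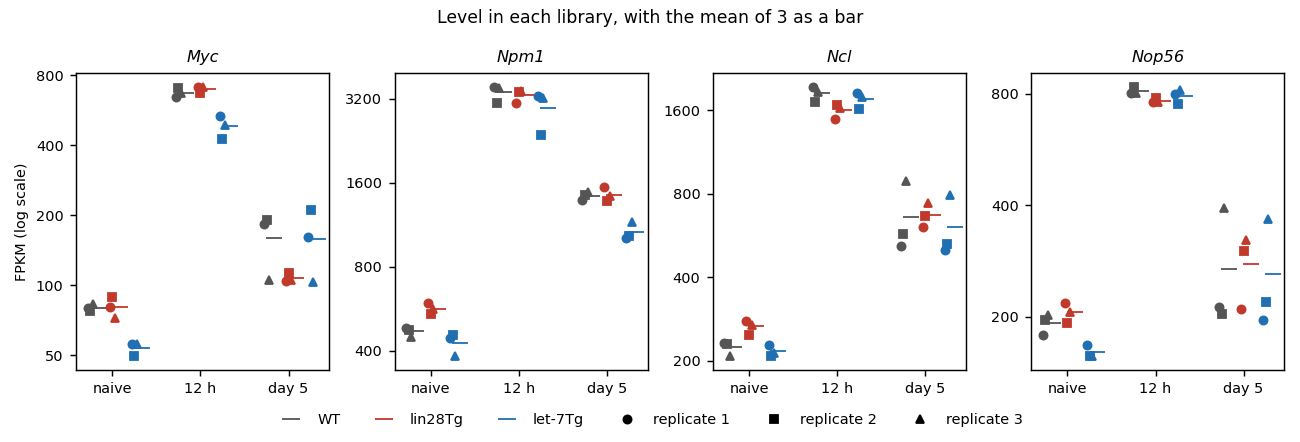
FPKM (log axis) of Myc, Npm1, Ncl and Nop56 in each of the 9 groups, with colour for genotype, 1 point per library shaped by replicate number and a bar for the mean of 3 libraries. All 4 genes were highest at 12 h in each genotype, and at day 5 replicate 3 of WT and of let-7Tg is the highest point of its group for Npm1, Ncl and Nop56 but the lowest for Myc.

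The first comparison asked how the genes responded to activation. In WT cells all 35 rose between the naive stage and 12 h, by a median of 2.23 on the log2 scale, while 34.6% of all tested genes rose and the median of all genes was −0.05. Myc was at 79.8, 77.3 and 82.7 FPKM in naive WT libraries and at 647, 702 and 667 FPKM after 12 h. It rose 9.68-fold, by 3.27 (SE 0.18, limma adjusted p = 5.2e-13), more than any other of the 35 genes. Npm1, which encodes the histone chaperone nucleophosmin of the nucleolus, was the most abundant of the genes in each group and went from 483, 476 and 446 FPKM to 3541, 3088 and 3501 FPKM. Its rise of 3.06 (SE 0.13) had the smallest adjusted p of the 35, 4.3e-15 with limma. Ncl, which encodes nucleolin, went from 232, 230 and 207 FPKM to 1945, 1717 and 1868 FPKM, a rise of 3.25 (SE 0.18, limma adjusted p = 3.2e-13). The smallest rise was that of Polr1c, a subunit shared by RNA polymerases I and III, from 69.7, 67.7 and 64.3 FPKM to 147, 151 and 145 FPKM, which was 1.34 (SE 0.07, limma adjusted p = 4.4e-13). For Myc, Npm1, Ncl and Polr1c every 12 h WT library lay above every naive WT library.

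The rise ran through all roles but was not equal in size. Its median in WT was 1.69 for the 3 RNA polymerase I subunits, 2.51 for the nucleolar proteins, 2.49 for the snoRNP proteins, 1.90 for the small subunit factors and 2.17 for the large subunit factors. All 35 genes also rose in lin28Tg cells, by a median of 2.12 against 35.9% of all genes, and in let-7Tg cells, by a median of 2.53 against 34.4% of all genes. In both Myc rose most, by 3.39 (SE 0.18, limma adjusted p = 4.3e-13) in lin28Tg and by 3.38 (SE 0.18, limma adjusted p = 3.3e-13) in let-7Tg cells, and Polr1c rose least, by 1.51 and 1.29. Without any scaling between libraries the median of all genes moved to −0.18 in WT and the median of the 35 genes to 2.02, and all 35 were still called.

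Between 12 h and day 5 all 35 genes fell in every genotype, by a median of −2.02 in WT, where 33.7% of all genes fell, −1.88 in lin28Tg, where 32.7% fell, and −2.06 in let-7Tg cells, where 33.7% fell. In WT cells Rrp9, which encodes a U3 snoRNP protein, fell most, by 3.02, and Polr1c least, by 1.12 (SE 0.07, limma adjusted p = 1.3e-11). Fbl, the rRNA methyltransferase fibrillarin, was at 764, 727 and 759 FPKM at 12 h and at 207, 185 and 250 FPKM on day 5, and fell by 1.96 (SE 0.14, limma adjusted p = 2.9e-11). Myc fell by 2.26 (SE 0.18, limma adjusted p = 3.7e-10) in WT and by 2.74 (SE 0.18, limma adjusted p = 1.9e-11) in lin28Tg cells. Since the day 5 libraries come from a separate analysis and from another way of stimulation, these falls cannot be assigned to time alone. Without replicate 1 of lin28Tg CTLs, 34 genes were called in that genotype, and in no other fit that left out a library did a count drop.

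Against naive cells fewer of the 35 genes were called in CTLs than at 12 h. A gene not called was not shown to be back at its naive level, since the day 5 replicates spread widely. Over the 35 genes the median SD on the log2 scale was 0.625 in WT CTLs and 0.0546 in naive WT cells. In WT CTLs 10 of the 35 genes were higher and 2 lower than in naive cells, 12 in all, beside 65.3% of all tested genes called in either direction. Npm1 stayed highest, with 1387, 1443 and 1483 FPKM on day 5, a difference of 1.69 (SE 0.13, limma adjusted p = 1e-10). Ncl followed at 1.60 (SE 0.18, limma adjusted p = 5.4e-08). Myc was at 183, 190 and 105 FPKM in WT CTLs, all above its naive levels, and differed by 1.01 (SE 0.18, limma adjusted p = 4.7e-05). Nhp2, a core protein of H/ACA snoRNPs, differed by 0.77 (SE 0.18, limma adjusted p = 0.00059). The snoRNP proteins had 4 genes higher and a median of 0.68, whereas 6 of the 8 small subunit factors were below their naive level, with a median of −0.42 and 1 called, Utp20 (−0.61, SE 0.25, limma adjusted p = 0.038). Ppan, a large subunit factor, was also lower in CTLs (−0.82, SE 0.27, limma adjusted p = 0.012). Without replicate 3 of WT CTLs the count was 8 higher and 10 lower, so the balance of directions rested on that library. The medians by role include that library.

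Compared with naive cells of their own genotype, lin28Tg CTLs had 13 genes higher and none lower, beside 68.5% of all genes called, and let-7Tg CTLs had 13 higher and 1 lower, Rrp9 (−1.35, SE 0.42, limma adjusted p = 0.0085), beside 62.5%. Rrp9 is among the genes for which replicate 2 of let-7Tg CTLs lay more than 4 times below both other libraries. The Npm1 difference was 1.59 in the former and 1.41 in the latter (SE 0.13 in each). Myc was 0.65 higher in lin28Tg CTLs (SE 0.18, limma adjusted p = 0.0035) and 1.57 higher in let-7Tg CTLs (SE 0.18, limma adjusted p = 1.4e-07). Without scaling the count in lin28Tg CTLs fell to 7, and without replicate 3 of let-7Tg CTLs 10 genes were higher and 5 lower.

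**Figure D2:**
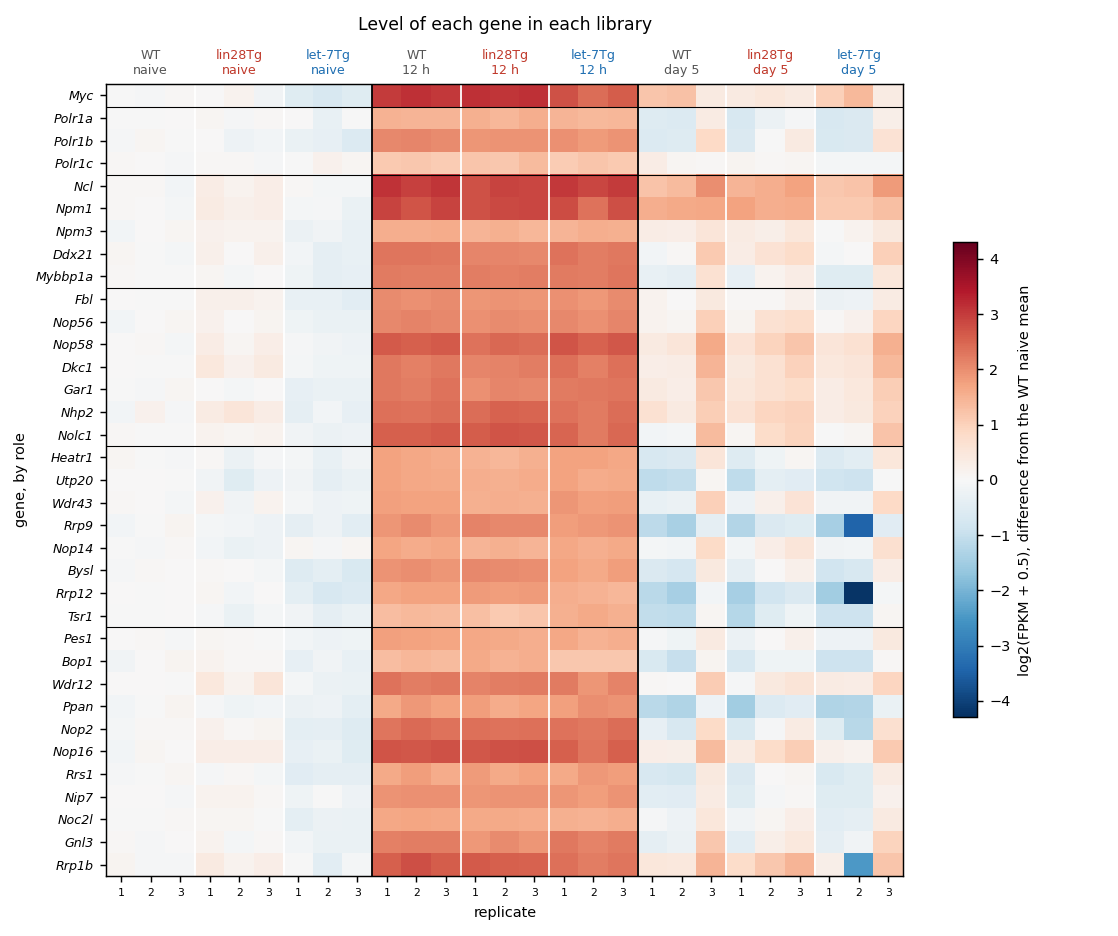
Log2 of FPKM plus 0.5 for the 35 genes (vertical, by role) in all 27 libraries (horizontal, by stage, genotype and replicate number), each gene relative to its mean in naive WT libraries, with a colour scale from −4.3 to 4.3. The 9 libraries of the 12 h stage are red for all genes, and among day 5 libraries replicate 3 of WT and of let-7Tg is the reddest of its group.

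Genotypes were then compared within each stage. The WT libraries of a stage enter both comparisons with WT, and the lin28Tg and let-7Tg libraries each enter a pair of comparisons, so these comparisons are not independent of each other. In naive cells the clearest difference lay between lin28Tg and let-7Tg. Of the 35 genes 26 were higher in lin28Tg and 1 was lower, with a median difference of 0.35, beside 22.9% of all tested genes higher, 44.1% called in either direction and a median of −0.03 over all genes. Myc was at 80.8, 88.7 and 72.3 FPKM in lin28Tg and at 55.8, 49.4 and 56.0 FPKM in let-7Tg libraries, which did not overlap. The difference was 0.57 (SE 0.08, limma adjusted p = 8.0e-04), a fold of 1.48.

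Fbl had the smallest adjusted p of the genes. It was at 217, 214 and 205 FPKM in naive lin28Tg and at 148, 149 and 136 FPKM in naive let-7Tg libraries, and the difference was 0.55 (SE 0.06, limma adjusted p = 2.2e-04). Nop16, a large subunit assembly factor, was at 34.2, 33.8 and 34.4 FPKM against 21.9, 23.1 and 19.3 FPKM, a difference of 0.65 (SE 0.09, limma adjusted p = 5.6e-04). Nop2, an rRNA methyltransferase of the large subunit, was at 39.7 ± 1.62 FPKM in lin28Tg and at 26.8 ± 1.7 FPKM (SD, n = 3 each) in let-7Tg cells, a difference of 0.55 (SE 0.08, limma adjusted p = 6.7e-04). Nhp2 showed the widest gap in log2 terms, 0.68. For each of these 4 genes every lin28Tg library lay above every let-7Tg library.

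By role, all 5 nucleolar proteins, all 7 snoRNP proteins and 10 of the 11 large subunit factors were higher in naive lin28Tg than in let-7Tg cells, the exception being Ppan. The small subunit factors and polymerase subunits did so less uniformly, with Bysl and Rrp12 higher, Nop14 lower and 5 not called among the 8 small subunit factors, and only Polr1b called among the 3 polymerase subunits. Nop14, a nucleolar factor of the small subunit, was at 30.6, 27.4 and 28.6 FPKM in lin28Tg and at 35.3, 32.1 and 35.1 FPKM in let-7Tg libraries, a difference of −0.25 (SE 0.07, limma adjusted p = 0.017). In fits without 1 of the 9 libraries 22 to 27 genes were called, and without lin28Tg replicate 2, the library with the most myeloid RNA, 26 were higher and 0 lower. In the model of all 27 libraries, whose spread includes the wide day 5 groups, 5 were called (Myc, Npm1, Npm3, Fbl, Nhp2), beside 37.8% of all genes.

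In naive lin28Tg replicates 1, 2 and 3 the myeloid markers summed to 229, 1010 and 526 FPKM, the erythroid markers to 1050, 1990 and 494 FPKM and the NK cell markers to 117, 412 and 215 FPKM. The median of the 34 genes other than Myc relative to WT was 0.10, −0.06 and −0.09 on the log2 scale in these libraries. The part of this RNA in the difference from let-7Tg was not tested.

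Naive let-7Tg cells had lower levels than WT. With 34 of the 35 genes below 0 the median difference was −0.32, beside −0.01 over all genes, and 9 genes were called, all lower, beside 0.641% of all genes called lower and 0.939% called in either direction. Myc was at 77.3 to 82.7 FPKM in WT and at 49.4 to 56.0 FPKM in let-7Tg libraries and was the lowest of all, at −0.62 (SE 0.08, limma adjusted p = 0.014). Rrp12, a factor of small subunit export, was at 20.4, 19.7 and 20.3 FPKM in WT and at 14.9, 12.4 and 13.3 FPKM in let-7Tg libraries, a difference of −0.61 (SE 0.09, limma adjusted p = 0.018). Fbl differed by −0.41 (SE 0.06, limma adjusted p = 0.027) and Rrs1, a factor of 5S RNP assembly, by −0.47 (SE 0.07, limma adjusted p = 0.032). The other 5 called were Bysl, Nop2, Gar1, Mybbp1a and Noc2l, from −0.58 to −0.36. For Myc and Rrp12 every let-7Tg library lay below every WT library. The calls rested on single libraries. No gene was called without WT replicate 2, WT replicate 3 or let-7Tg replicate 3, or in the model of all 27 libraries, and without WT replicate 1 or let-7Tg replicate 1 there were 2 in each case. Of 5 tested erythroid markers 3 were also called lower in naive let-7Tg than in WT libraries and 0 higher. The erythroid markers summed to 1.92 to 38.7 FPKM in let-7Tg and 153 to 292 FPKM in WT. The part of this RNA in the result was not tested.

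Naive lin28Tg and WT cells differed little in these genes. Dkc1, the pseudouridine synthase dyskerin (0.28, SE 0.07, limma adjusted p = 0.018), Wdr12 of the large subunit (0.33, SE 0.10, limma adjusted p = 0.034) and Nhp2 (0.34, SE 0.11, limma adjusted p = 0.036) were higher in lin28Tg. Nop14 (−0.26, SE 0.07, limma adjusted p = 0.017) and Utp20 (−0.36, SE 0.11, limma adjusted p = 0.028), both of the small subunit, were lower. These 5 calls stand beside 34.8% of all genes called, and the median difference of the 35 genes was −0.01. The Myc difference was −0.05 (SE 0.08) and was not called, with overlapping libraries. No gene was called without WT replicate 3 or in the model of all 27 libraries, and without scaling 8 genes were higher and 1 lower.

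**Figure D3:**
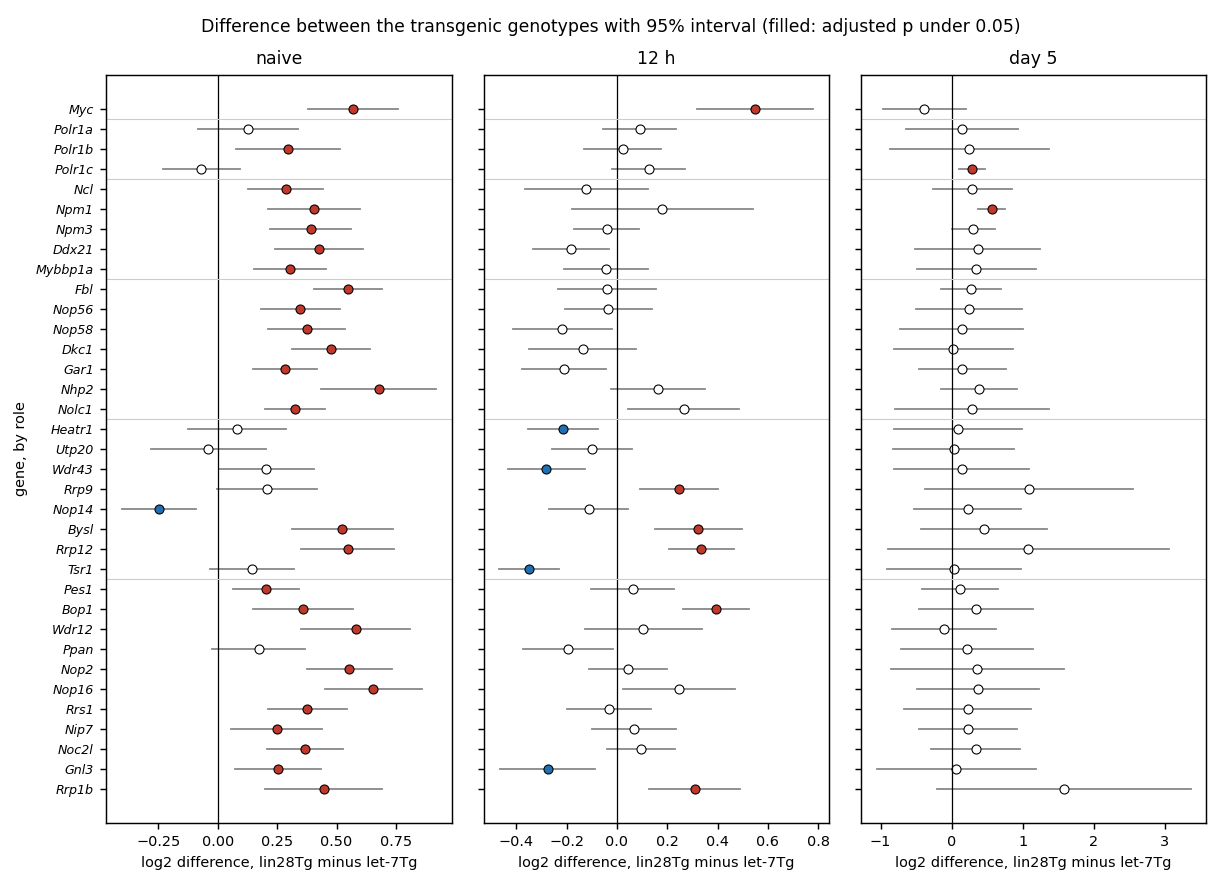
Log2 difference between lin28Tg and let-7Tg for each of the 35 genes (vertical, by role) in naive cells, at 12 h and on day 5, with bars for the 95% interval of the limma model and filled points for genes called at an adjusted p under 0.05; the horizontal axes of the panels have different ranges. The naive panel holds 26 genes called above 0, the 12 h panel 6 above and 4 below 0, and the day 5 panel 2 above 0 with wide intervals.

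At 12 h the 35 genes did not differ in one direction, while Myc still differed. Between lin28Tg and let-7Tg 6 genes were higher and 4 lower, beside 30.7% of all genes called, with a median of 0.02. Myc was at 708, 672 and 713 FPKM in lin28Tg and at 531, 424 and 490 FPKM in let-7Tg libraries, a difference of 0.55 (SE 0.10, limma adjusted p = 0.0041) that no library bridged. Bop1, which forms the PeBoW complex with Pes1 and Wdr12, was at 151, 138 and 144 FPKM in lin28Tg and at 110, 110 and 111 FPKM in let-7Tg libraries and differed by 0.40 (SE 0.06, limma adjusted p = 0.0012). Rrp12 differed by 0.34 (SE 0.06, limma adjusted p = 0.0027) and Bysl, the small subunit factor bystin, by 0.32 (SE 0.08, limma adjusted p = 0.013). Rrp1b, a nucleolar factor of the large subunit, and Rrp9 were the other genes above, at 0.31 and 0.25. Neither of the partners of Bop1 in the complex was called at 12 h.

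Tsr1, which acts late in small subunit maturation, went the opposite way. It was at 117, 105 and 109 FPKM in lin28Tg and at 138, 149 and 139 FPKM in let-7Tg libraries, a difference of −0.35 (SE 0.05, limma adjusted p = 0.0014). Wdr43 (−0.28, SE 0.07, limma adjusted p = 0.014) and Heatr1 (−0.21, SE 0.06, limma adjusted p = 0.029), both of the complex that binds the nascent precursor, were also lower in lin28Tg, as was Gnl3, the nucleolar GTPase nucleostemin (−0.28, SE 0.08, limma adjusted p = 0.034). The small subunit factors were therefore divided, with 3 higher, 3 lower and 2 not called. Fits without 1 library called 6 to 15 genes, the 6 without lin28Tg replicate 1 and the 15 without let-7Tg replicate 2. Myc, Bop1, Rrp12, Bysl, Tsr1 and Wdr43 were called in each of these 9 fits, and the model of all 27 libraries called Myc alone. Markers of other cells also differed between these libraries, with the 6 erythroid markers summing to 83.3 to 693 FPKM in lin28Tg, 26.1 to 103 FPKM in WT and 0.774 to 4.34 FPKM in let-7Tg libraries. Of these markers 4 of 5 tested were higher in lin28Tg than in let-7Tg, as were 4 of 7 tested myeloid markers, whose sums were 9.93 to 20.7 FPKM in lin28Tg, 7.74 to 12.3 FPKM in WT and 6.26 to 12.6 FPKM in let-7Tg libraries. Their part in the result was not tested.

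Against WT at 12 h, let-7Tg cells had 2 genes lower, beside 3.18% of all genes called. Myc was at 647 to 702 FPKM in WT and at 424 to 531 FPKM in let-7Tg libraries, a difference of −0.51 (SE 0.10, limma adjusted p = 0.039). Rrp1b was at 263, 300 and 268 FPKM in WT and at 230, 203 and 218 FPKM in let-7Tg libraries, a difference of −0.38 (SE 0.08, limma adjusted p = 0.043). Myc was not called without any 1 of the 3 WT libraries, any 1 of the 3 lin28Tg libraries or let-7Tg replicate 3, nor with the 6 compared libraries alone, although its difference stayed between −0.60 and −0.39. Rrp1b was called in 1 of the 9 fits without a library. Replicate numbers pair the WT and let-7Tg libraries at this stage, and with a replicate block Myc was called (−0.51, SE 0.10, limma adjusted p = 0.0498) and Rrp1b was not (−0.38, SE 0.09, limma adjusted p = 0.067). In lin28Tg against WT no gene was called with limma, while 10 had an unadjusted p under 0.05, beside 8.46% of all genes called. The Myc difference was 0.04 (SE 0.10), with a 95% interval from −0.19 to 0.27. With the 6 compared libraries alone, 6 genes were called lower in lin28Tg, and without let-7Tg replicate 2, which enters only through the shared spread, 1 was called higher and 8 lower.

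On day 5, when the replicates spread widely, few of the genes were called. Npm1 was at 1547, 1375 and 1432 FPKM in lin28Tg, 1387, 1443 and 1483 FPKM in WT and 1013, 1033 and 1158 FPKM in let-7Tg CTLs, so that each let-7Tg library lay below all others. It differed by 0.56 (SE 0.09, limma adjusted p = 0.0022) between lin28Tg and let-7Tg and by −0.48 (SE 0.09, limma adjusted p = 0.043) between let-7Tg and WT. Npm1 also has processed pseudogenes elsewhere in the genome, so reads may be shared with near copies. Polr1c, at 73.1, 69.4 and 70.9 FPKM in lin28Tg and at 63.4, 63.4 and 63.2 FPKM in let-7Tg CTLs, differed by 0.29 (SE 0.08, limma adjusted p = 0.032). These were the 2 calls between lin28Tg and let-7Tg, beside 21.9% of all genes, and 33 of the 35 values were above 0 with a median of 0.25. With a replicate block, for which the numbers pair the libraries at day 5, Npm3, a nucleolar histone chaperone of the nucleoplasmin family, was called as well (0.31, SE 0.07, limma adjusted p = 0.014), beside 37.1% of all genes. Between these genotypes Npm1 was called in all 9 fits without a library, and Polr1c was not called without any 1 of the lin28Tg libraries or without let-7Tg replicate 1 or 2. Npm1 was the single call between let-7Tg and WT, beside 1.0% of all genes, and it was called there in 1 of the 9 fits without a library, the one without let-7Tg replicate 3.

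Between lin28Tg and WT CTLs no gene was called with limma and none had an unadjusted p under 0.05 in the model without a replicate block, beside 4.6% of all genes called. Myc was at 104, 112 and 105 FPKM in lin28Tg, 183, 190 and 105 FPKM in WT and 162, 209 and 103 FPKM in let-7Tg CTLs. The WT and let-7Tg libraries with the low Myc levels were the replicates 3 that stood highest for the other genes. In that model the Myc difference was −0.45 (SE 0.26, limma adjusted p = 0.38) between lin28Tg and WT, −0.38 (SE 0.26, limma adjusted p = 0.33) between lin28Tg and let-7Tg and −0.07 (SE 0.26, limma adjusted p = 0.98) between let-7Tg and WT. With a replicate block, for which the numbers pair the libraries at day 5, the SE of Myc was 0.16 and it was not called either. Its limma adjusted p was then 0.10 for lin28Tg against WT, 0.099 for lin28Tg against let-7Tg and 0.86 for let-7Tg against WT. A fit of the 6 libraries numbered 1 and 2, chosen after the day 5 values had been seen, called 9 genes between lin28Tg and let-7Tg, beside 22.2% of all genes. In it Npm1, Fbl, Ncl, Ddx21, Npm3, Noc2l, Bysl and Nhp2 were higher in lin28Tg, Npm1 by 0.65 (SE 0.08, limma adjusted p = 0.0045), and Myc was lower, by 0.63 on the log2 scale (−0.63, SE 0.14, limma adjusted p = 0.024).

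**Figure D4:**
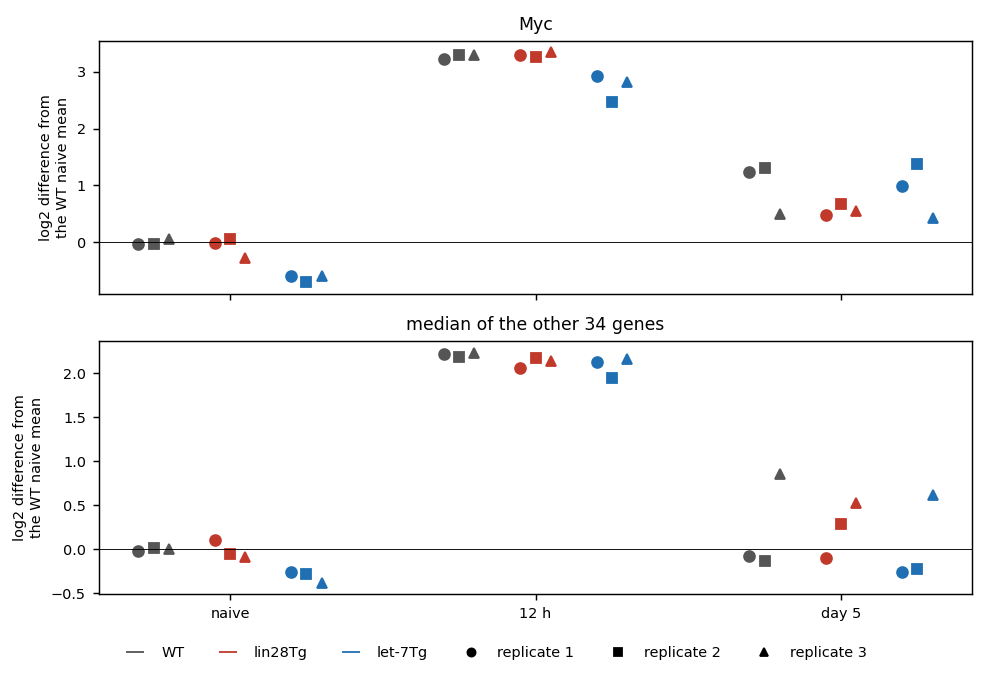
Log2 difference from the naive WT mean of Myc (upper panel) and of the median of the other 34 genes (lower panel) in each of the 27 libraries by stage, with colour for genotype and shape for replicate number. The naive let-7Tg points are below all other naive points in both panels, the 12 h let-7Tg points stand apart in the Myc panel, and at day 5 replicate 3 of WT and of let-7Tg is low for Myc and high for the other genes.

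Whether a genotype difference changed between stages was tested in the model of all 27 libraries. Between lin28Tg and let-7Tg the difference at day 5 minus that at 12 h was called for 1 gene, beside 20.9% of all genes. This gene was Myc, which was 0.55 higher in lin28Tg at 12 h and 0.38 lower at day 5, a change of −0.93 (SE 0.26, limma adjusted p = 0.012). The day 5 difference itself was not called. None of the other 34 genes was called, and 32 of the 35 values were above 0 with a median of 0.30. Without let-7Tg day 5 replicate 3, 7 genes were called, 6 of them positive, and Myc was called in each of the 12 fits without a library.

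The same difference at 12 h minus that in naive cells gave no call with limma, 3 genes with an unadjusted p under 0.05 and a lowest adjusted p of 0.055, beside 13.4% of all genes called. It was below 0 for 30 genes, with a median of −0.32. A model of the 18 naive and 12 h libraries alone, chosen after the spread of the day 5 libraries had been seen, called 14 of the 35 genes, all with a smaller or opposite difference at 12 h, beside 16.2% of all genes. Ddx21, a nucleolar RNA helicase (−0.58, SE 0.11, limma adjusted p = 0.0030), Tsr1 (−0.47, SE 0.09, limma adjusted p = 0.0045), Fbl (−0.56, SE 0.11, limma adjusted p = 0.0047) and Gar1 of the H/ACA snoRNPs (−0.47, SE 0.10, limma adjusted p = 0.0065) had the smallest adjusted p. The other 10 were Nop58, Dkc1, Nop2, Gnl3, Npm3, Wdr43, Rrs1, Nhp2, Nop56 and Mybbp1a. Myc changed by 0.01 between these stages, with a 95% interval from −0.53 to 0.54 in the model of all 27 libraries.

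The remaining changes between stages held no called gene with limma. For lin28Tg against WT none of the 35 genes had an unadjusted p under 0.05 either from naive to 12 h or from 12 h to day 5, beside 7.85% and 6.42% of all genes called. For let-7Tg against WT none had one from naive to 12 h, beside 0.0969% of all genes called, and 1 had one from 12 h to day 5, beside 1.35%. In the model of 18 libraries Tsr1 was called for let-7Tg against WT from naive to 12 h (0.50, SE 0.09, limma adjusted p = 0.049), beside 0.159% of all genes.

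To place the genes relative to let-7, the sequences of the miRNAs and of possible sites were read from the reference. All 9 mature members of the mouse let-7 and miR-98 family in RefSeq (GRCm38.p6) share their seed, bases 2 to 8, shown in capitals for the member encoded by the transgene and for 2 relatives with another 3′ end. The let-7g copy is at chr9:106178846-106178867 on the plus strand.
mmu-let-7g-5p: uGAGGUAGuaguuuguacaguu
mmu-let-7a-5p: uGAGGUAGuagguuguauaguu
mmu-miR-98-5p: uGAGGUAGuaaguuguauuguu
A match to the seed, CTACCTC on the mRNA strand, was searched in the 3′ UTRs of GENCODE M21 (GRCm38), using the longest coding transcript of each gene. Of the 35 genes 3 held it (8.57%), compared with 10.9% of 12738 tested genes and 9.26% of 21193 genes with a 3′ UTR. The median UTR was 497 bases for the 35 genes and 1172 bases for the tested genes. The Myc UTR of 442 bases held none. The 3 windows of 30 bases are printed on the mRNA strand with the match in capitals, because their genes differed between lin28Tg and let-7Tg at both early stages.
Bysl, chr17:47600494-47600523, minus strand: cactgctgtgaaacaCTACCTCaccaaaaa
Rrp12, chr19:41862971-41863000, minus strand: ggaaatgtgacgtcgCTACCTCtgagaagg
Rrp1b, chr17:32061012-32061041, plus strand: cctgtccctgtcttcCTACCTCtatagcaa
Only the Bysl match is followed by an A. These are matches of letters and were not shown to be sites.

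Bysl, Rrp12 and Rrp1b were all higher in lin28Tg than in let-7Tg cells when naive, by 0.52 (SE 0.09), 0.55 (SE 0.09) and 0.45 (SE 0.11), and at 12 h, by 0.32 (SE 0.08), 0.34 (SE 0.06) and 0.31 (SE 0.08). In naive cells 26 of the 35 genes were called higher, so the naive difference was shared with most genes that hold no match. Bysl, Rrp12 and Rrp1b make up 3 of the 6 genes called higher at 12 h, next to Myc, Bop1 and Rrp9, which hold no match. Bysl was at 65.0, 63.9 and 62.5 FPKM in lin28Tg, 59.9, 63.1 and 57.5 FPKM in WT and 51.3, 48.0 and 54.5 FPKM in let-7Tg libraries at 12 h, so that let-7Tg lay below both other groups. Between let-7Tg and WT at 12 h, however, Bysl and Rrp12 were not called, and only Rrp1b was. Over all tested genes at 12 h, 26.4% of 1256 genes with a match were higher in lin28Tg than in let-7Tg, against 16.3% of 9972 genes without. In naive cells the shares were 28.9% of 1331 genes with a match and 24.1% of 10722 genes without. The shares called lower were 10.2% with and 14.9% without a match at 12 h, and 18.8% and 21.5% in naive cells. UTR length was not matched between these sets, and a part of let-7 in the differences was not tested. Exons of Bysl share 361 bases (9.37%) with Ccnd3 on the opposite strand, which was at 53.1 to 287 FPKM, and the counting is not stated to use strand, so reads of these genes may be mixed. The same holds for Tsr1, of which 32.3% of exon bases overlap Srr at 1.63 to 4.2 FPKM, and for Noc2l, of which 20.9% overlap Samd11 at 0.124 to 1.33 FPKM.

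**Figure D5:**
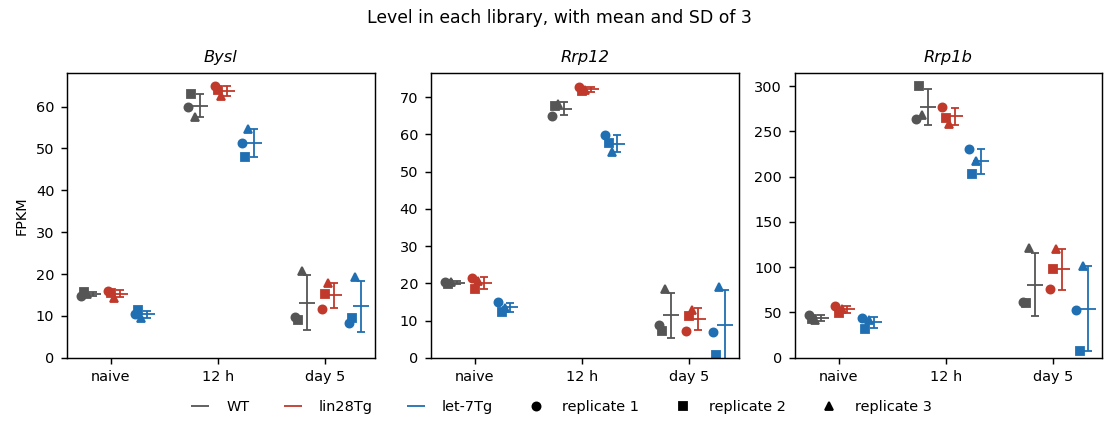
FPKM (linear axis from 0) of Bysl, Rrp12 and Rrp1b, the 3 genes with a let-7 seed match in the 3′ UTR, in the 9 groups, with 1 point per library and the mean ± SD of 3; the lower bar of Rrp12 in let-7Tg at day 5 is cut at 0. At 12 h every let-7Tg point is below every lin28Tg point for each gene, and at day 5 replicate 2 of let-7Tg is the lowest point for Rrp12 and Rrp1b.

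The canonical E-box CACGTG, which reads the same on both strands, was searched in the RefSeq promoters (GRCm38.p6) from 250 bases before to 50 bases after the gene start. Promoters of 29 of the 35 genes were available, and 6 of these genes held it (20.7%), compared with 11.4% of 10685 tested genes and 8.09% of 27025 genes. They were Nop2, Utp20, Pes1, Mybbp1a, Tsr1 and Wdr43. Promoters of Myc, Npm1, Fbl, Rrp12, Bop1 and Rrs1 were not analysed here. Windows of 30 bases are printed for Nop2, a large subunit factor, and for Tsr1 and Wdr43, both small subunit factors, with the E-box in capitals.
Nop2, chr6:125131811-125131840, plus strand: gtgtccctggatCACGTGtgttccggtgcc
Tsr1, chr11:74898092-74898121, plus strand: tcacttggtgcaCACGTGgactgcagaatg
Wdr43, chr17:71616220-71616249, plus strand: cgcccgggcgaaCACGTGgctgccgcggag
All 6 rose in WT cells by 12 h, as did the other genes. In naive cells Nop2, Pes1 and Mybbp1a were called higher in lin28Tg than in let-7Tg, beside 26 of the 35 genes and 22.9% of all genes. At 12 h Tsr1 and Wdr43 were called lower, beside 4 of the 35 genes and 30.7% of all genes called in either direction.

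Further genes of the pathway were taken from lists outside the 35. In WT cells 43 of 43 tested other factors of the small subunit rose by 12 h with a median of 1.68, as did 48 of 49 of the large subunit with a median of 1.58, 11 of 12 of the exosome and rRNA decay and 10 of 12 other factors of RNA polymerase I, beside 34.6% of all genes. Examples were Nop10, the small protein of H/ACA snoRNPs (1.74, SE 0.11), and Rbm28 of the large subunit (1.82, SE 0.10). Between naive lin28Tg and let-7Tg cells the medians of these lists were near 0. Of the 43 small subunit factors 12 were higher and 3 lower with a median of 0.07, and of the 49 large subunit factors 5 were higher and 5 lower with a median of 0.01, beside 44.1% of all genes called in either direction and 22.9% called higher. Among them Naf1, an assembly factor of H/ACA snoRNPs, was higher (0.78, SE 0.13) and Las1l, an endonuclease that cuts the rRNA precursor, was lower (−0.51, SE 0.08). At 12 h the same lists had 3 higher and 1 lower, and 7 higher and 3 lower, beside 30.7% of all genes called. Mdn1, the large AAA ATPase that remodels early large subunits, was 0.73 lower in lin28Tg on the log2 scale (−0.73, SE 0.11, limma adjusted p = 0.0012).

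Targets of Myc outside ribosome biogenesis rose with activation as well. All 15 rose in WT cells by 12 h, beside 34.6% of all genes, with a median of 2.09, Tfrc, the transferrin receptor, by 2.94 (SE 0.10) and Odc1, which starts polyamine synthesis, by 4.09 (SE 0.17). In naive cells 12 of 15 were higher and 1 lower in lin28Tg than in let-7Tg, beside 22.9% of all genes called higher, with a median of 0.57. Odc1 was at 40.6 ± 3.92 FPKM (SD, n = 3) in lin28Tg and at 18.5 ± 2.14 FPKM (SD, n = 3) in let-7Tg cells, and Cad, the first enzyme of pyrimidine synthesis, at 78.9 ± 2.92 and 50.8 ± 2.73 FPKM (SD, n = 3 each). At 12 h 4 of 15 were higher and none lower, beside 30.7% of all genes called in either direction, with 383 ± 10.3 FPKM of Tfrc in lin28Tg against 256 ± 16.0 FPKM in let-7Tg cells (SD, n = 3 each).

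Of the partners and antagonists of Myc, 3 of 12 rose and 3 fell in WT cells by 12 h, beside 71.0% of all genes called in either direction, and Mxd4, which encodes an antagonist that competes for Max, fell by 3.76 (SE 0.33, limma adjusted p = 7.1e-10). Between naive lin28Tg and let-7Tg cells 4 of 11 tested were higher and 2 lower, beside 44.1% of all genes called. Mxd3 was at 11.1 ± 3.04 FPKM in lin28Tg and at 0.586 ± 0.0771 FPKM in let-7Tg cells, and Mxd1 at 25.1 ± 2.56 and 8.14 ± 1.47 FPKM (SD, n = 3 each). The naive lin28Tg libraries held more myeloid and erythroid marker RNA than the let-7Tg libraries. Its part in these differences, and in those of the Myc targets above, was not tested. On day 5 Mycn, a paralog of Myc, was at 36.1 ± 19.6 FPKM in lin28Tg and at 2.51 ± 0.847 FPKM in let-7Tg CTLs (SD, n = 3 each), a difference of 3.56 (SE 0.58, limma adjusted p = 0.0031).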

How the data were processed

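RNA was extracted from P14 CD8 T cells and sequenced by a company, with 3 biological replicates in each of 9 groups. Per the labels, reads were aligned with TopHat2 2.0.9 and Bowtie2 2.0.6, counted with HTSeq 0.6.1 and compared with DESeq2, and the genome build is given as GRCm38 and mm10. The authors deposited 1 table per stage with the FPKM of 35275 genes in each library, which corrects for gene length and library total but not for composition. Only these FPKM columns were used. The other columns, which hold the authors' group means, fold changes, p-values and heatmap clusters, were not used.

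All 462839 FPKM values above 0 were whole reads within 0.01 reads (100.0%) once gene length and library total were taken into account. The recovered reads gave depths of 13862679 to 23590836 and the filter, for which a gene needed the equivalent of 10 reads in 3 or more libraries once depths were set to their median. This left 13425 genes in naive cells, 12275 at 12 h, 12754 at day 5 and 14453 over all 27 libraries. A count model was not applied because the deposited unit is FPKM. FPKM was scaled by trimmed means of log ratios (30% of ratios and 5% of levels trimmed at each end), and log2 of scaled FPKM plus 0.5 was fitted with limma 3.58.1 in R 4.3.3 with an intensity trend. One model of 9 libraries per stage gave the genotype comparisons, and a model of 27 libraries gave stages and their interactions. P values were adjusted by Benjamini-Hochberg over all genes tested with a threshold of 0.05. The scripts were tested on simulated data. FPKM values and their SDs are unscaled. Tables were joined with pandas 2.3.3 in Python 3.11.15, and numpy was at 2.4.6. UTRs and gene positions are from GENCODE M21 and serve to place genes, since the annotation release of the authors is not given in the sources used here. Riok2 and Exosc6 of the lists were not found in the tables.

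Libraries of the same replicate number deviated together at day 5, with correlations of 0.249 to 0.721 in all 9 pairs, so the numbers pair the libraries there. At 12 h they pair WT and let-7Tg libraries (0.239 to 0.549) but not lin28Tg with either (−0.257 to 0.0723), and in naive cells they pair no groups (−0.252 to 0.465 in all, 0.058 to 0.465 between WT and let-7Tg). Each gene of the module is named at least once, with full statistics for Myc and for up to 4 called genes per direction with the smallest adjusted p, and up to 2 genes per direction from other lists. The genes and lists were chosen with earlier results of these data known. Alternatives were other scalings and pseudocounts, no filter, no trend, a replicate block, the 6 compared libraries alone, the model of 27 libraries and leaving out each library.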

Additional observations from a re-analysis of the deposited data

Results flagged for a closer look

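The difference in Myc between lin28Tg and let-7Tg cells differed between stages, by a test of the change itself. From 12 h to day 5 it changed by −0.93 on the log2 scale (SE 0.26, limma adjusted p = 0.012). Myc was called higher in lin28Tg at 12 h, while its day 5 difference of −0.38 was not called. The change was called in each of the 7 alternatives and in each of the 12 fits without a library. The day 5 libraries come from a separate sequencing analysis, and Myc was at 103 to 209 FPKM among the let-7Tg CTLs against 104 to 112 FPKM among the lin28Tg CTLs. None of the other 34 genes was called for this change, and 32 of the 35 values were above 0.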

How the results depend on the processing

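All 35 genes were called for every genotype in 12 h against naive cells under all alternatives and without any 1 library, and in day 5 against 12 h with 34 to 35 calls in lin28Tg. Of 204 counts of called genes under the alternatives 175 were within 1.5 times of the reported count and 29 were not, and their causes were not tested. In the model of all 27 libraries the naive comparisons gave 0 genes (lin28Tg against WT), 0 (let-7Tg against WT) and 5 (lin28Tg against let-7Tg), those at 12 h gave 0 for let-7Tg against WT and 1 for lin28Tg against let-7Tg, and those at day 5 gave 2 for let-7Tg against WT and 4 for lin28Tg against let-7Tg. Without scaling there were 9 for lin28Tg against WT in naive cells, 5 at 12 h, 1 for lin28Tg against let-7Tg at day 5 and 7 for lin28Tg at day 5 against naive. With no filter let-7Tg against WT gave 4 in naive cells, 0 at 12 h and 0 at day 5. With no trend it gave 1, 0 and 0, and lin28Tg against let-7Tg at day 5 gave 1. With the 6 compared libraries alone let-7Tg against WT gave 3, 0 and 0, and lin28Tg against WT at 12 h gave 6. For the difference between lin28Tg and let-7Tg at 12 h minus naive, 2 genes were called without scaling, 2 with median of ratios scaling and 14 in the model of 18 libraries, which was chosen after seeing the data and gave 1 for let-7Tg against WT. The 6 day 5 libraries numbered 1 and 2, also chosen then, gave 9 for lin28Tg against let-7Tg.

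With a replicate block, 1 gene was called for let-7Tg against WT at 12 h, where the numbers pair the libraries, and 1 for lin28Tg against let-7Tg at 12 h minus naive, where the libraries share only a number. Under the block lin28Tg against let-7Tg gave 27 in naive cells, 9 at 12 h and, where the numbers pair the libraries, 3 at day 5, and no other count moved by over 1.5 times.

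Without 1 library the counts ranged, in the order lin28Tg against WT, let-7Tg against WT and lin28Tg against let-7Tg, over 0 to 6, 0 to 8 and 22 to 27 in naive cells, 0 to 9, 0 to 3 and 6 to 15 at 12 h, and 0 to 0, 0 to 1 and 1 to 5 at day 5. Their changes from naive to 12 h ranged over 0 to 0, 0 to 0 and 0 to 1, and from 12 h to day 5 over 0 to 1, 0 to 0 and 1 to 7. Day 5 against naive gave 10 to 18 in WT, 9 to 14 in lin28Tg and 12 to 15 in let-7Tg.

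Of 84 alternatives for Myc, 76 kept direction and call. Its difference between lin28Tg and WT in naive cells, −0.05, was 0.0079 without scaling, 0.037 without lin28Tg replicate 3 and −0.13 to 0.037 without 1 library, and that between let-7Tg and WT at day 5, −0.07, was −0.33 to 0.18. For let-7Tg against WT the call was lost with no trend (−0.62) and in the model of 27 libraries (−0.64) in naive cells, and at 12 h with no filter, no trend or 6 libraries (−0.51 each) and in that model (−0.53). Between lin28Tg and let-7Tg at day 5 it was called only with libraries 1 and 2 (−0.63). Few reads limited no gene, since each had at least 60 reads per library.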
